A study of Anopheles coluzzii and Anopheles merus with 32 samples.

Results

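Messenger RNA levels of 6 chaperone genes are described here in whole larvae of the malaria mosquitoes Anopheles merus and Anopheles coluzzii, sibling species that the study's title sets against each other as tolerant of a wide and of a narrow range of salinity. The genes are Hsp83 (AGAP006958), Hsc70-4 (AGAP002076), BiP (AGAP004192), gp93 (AGAP001424), calreticulin (AGAP004212) and protein disulfide isomerase (AGAP007393). They were chosen by name as chaperones of the cytosol and the endoplasmic reticulum (ER), 6 of the 11025 identifiers in the deposited table, and all 6 passed the filter on low values. The table holds identifiers only, so the gene names are those given with the list and could not be checked against the files.

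Larvae of both species grew up in freshwater (FW). When they were 66 h or 18 h old, counted from hatching, they spent 6 h in saltwater (SW) or in FW, and each library was made from the whole bodies of a pool of 35 to 50 larvae. The 8 groups, with 4 libraries each, are An. merus at 66 h in SW and in FW, An. merus at 18 h in SW and in FW, and the same 4 of An. coluzzii. The labels give neither the salinity of the SW nor a strain. Whether the pools of 1 group were reared apart is not stated either, so the p-values speak of the spread among pools as sequenced, part of which may be technical. In whole-body RNA, fewer cells of a type and less RNA per cell cannot be told apart.

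Chaperones hold unfolded or partly folded proteins and help them to reach their final shape. In the cytosol, Hsc70-4, a constitutive member of the Hsp70 family, binds newly made polypeptides, and Hsp83, the insect Hsp90, acts later on client proteins such as kinases and nuclear receptors. In the ER, proteins bound for secretion or for membranes are met by BiP, the Hsp70 of that compartment and a regulator of the unfolded protein response, and by gp93, the ER form of Hsp90. Calreticulin, a calcium-binding lectin, retains glycoproteins there until they are folded, and protein disulfide isomerase makes and rearranges disulfide bonds.

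Values are read counts relative to library size (CPM) that the authors scaled with the trimmed mean of M values (TMM), a method that aligns the bulk of genes between libraries. Libraries held 3769859 to 16633623 reads, recovered from the table. The lowest value of any chaperone gene rested on 267 reads, a counting error of 6.12%. The TMM-scaled libraries sum to between 737787 (An. coluzzii at 18 h in FW) and 1481287 (An. merus at 66 h in SW), so a change of a single gene is relative to the bulk of genes. Library 1 of An. coluzzii at 18 h in SW, libraries 1 and 2 of An. coluzzii at 18 h in FW and library 2 of An. merus at 18 h in FW stood furthest above the means of their groups for the ER genes, and the values that move most without them are given beside the results.

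Hsc70-4 had the most regular pattern of the 6 genes. Its level was highest in An. merus at 66 h, with 10693, 11562, 10987 and 10062 CPM in the SW libraries and 8222, 9323, 8203 and 10061 CPM in the FW libraries. At 18 h An. merus had 7194, 6579, 6633 and 7177 CPM of this cytosolic chaperone in SW and 5340, 5102, 5117 and 4974 CPM in FW. All SW libraries of An. merus lay above all FW libraries of the same age, though at 66 h the lowest SW library (10062 CPM) barely passed the highest FW library (10061 CPM). How many of all genes separate in this way was not counted, here or for the genes below. An. coluzzii at 66 h had 6135, 5788, 6455 and 5590 CPM in SW and 5759, 6537, 5500 and 5718 CPM in FW. At 18 h that species had 5564, 4636, 4394 and 4882 CPM in SW and 3555, 3595, 4029 and 5077 CPM in FW. The waters overlapped in An. coluzzii at both ages. Ordered by mean, the levels ran from 10826 ± 624 CPM in An. merus at 66 h in SW down to 4064 ± 709 CPM in An. coluzzii at 18 h in FW (SD, n = 4 each). Neighbours in that order overlapped between the water groups of An. coluzzii at 66 h and among the last 3 groups (An. merus 18 h FW, An. coluzzii 18 h SW and An. coluzzii 18 h FW), and nowhere else.

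Hsp83 varied far more, from 49.6 to 466 CPM over the 32 libraries. At 66 h An. merus had 238, 215, 233 and 205 CPM of Hsp83 in SW and 148, 91.02, 129.5 and 112 CPM in FW, with no overlap. At 18 h An. merus had 173, 164, 198 and 198 CPM in SW and 179, 466, 114 and 210.1 CPM in FW, and FW library 2 stood far above the other 3. An. coluzzii was lowest at 66 h, with 49.6, 56.6, 50.2 and 69.1 CPM in SW and 94.0, 93.6, 55.2 and 60.1 CPM in FW. Its 18 h larvae had 192, 85.2, 74.95 and 97.3 CPM in SW and 300.5, 252, 124 and 121 CPM in FW. The waters overlapped in An. coluzzii at both ages. Ordered by mean from An. merus at 18 h in FW (242 ± 154 CPM) to An. coluzzii at 66 h in SW (56.3 ± 9.05 CPM), the only neighbours that did not overlap were An. merus at 18 h in SW and An. merus at 66 h in FW.

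**Figure D1:**
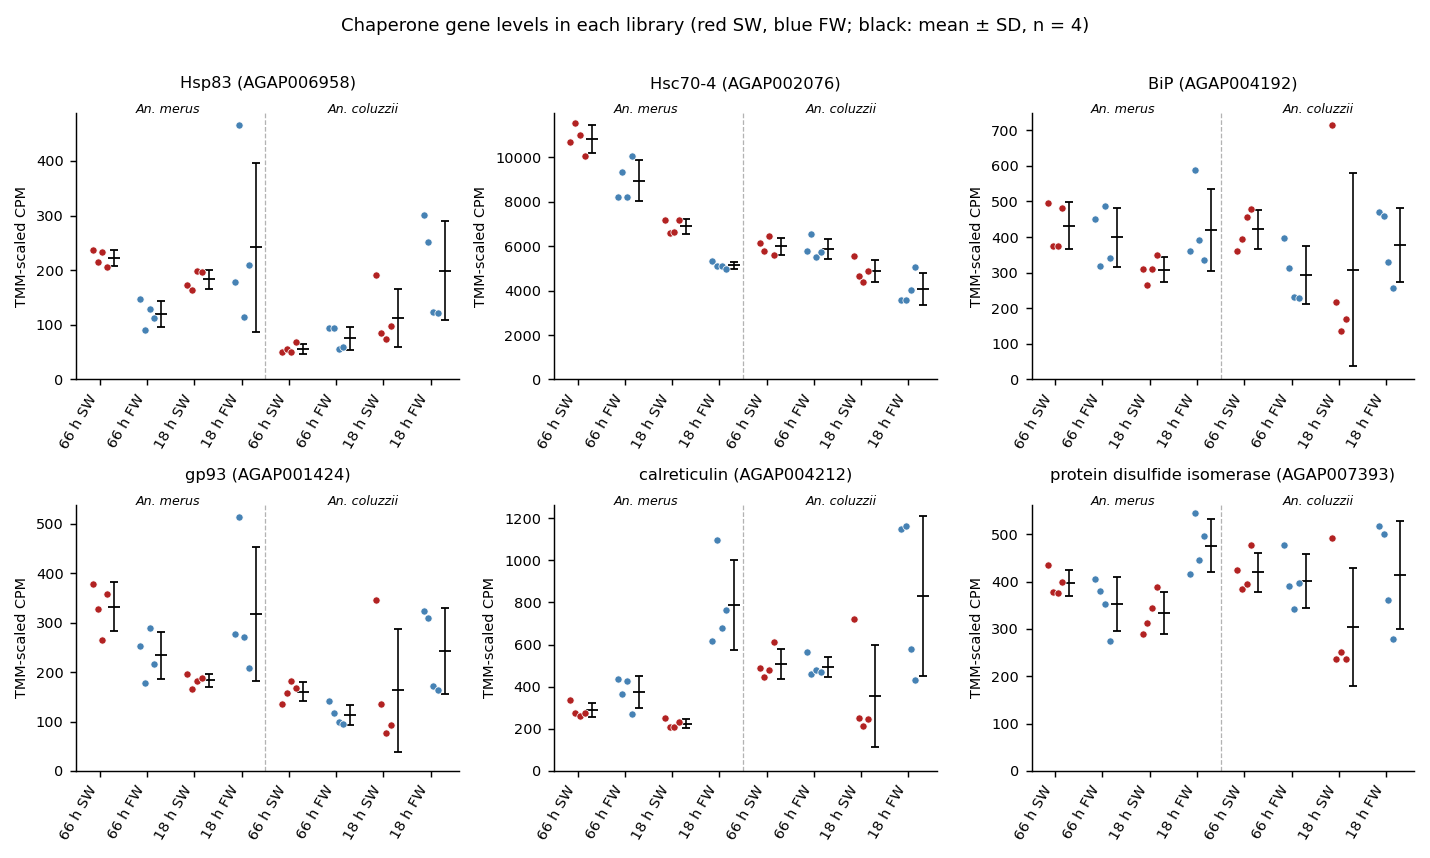
TMM-scaled CPM (linear axis from 0) of the 6 chaperone genes in the 32 libraries, by species, age and water; each point is 1 library, red for SW and blue for FW, and black marks give the mean ± SD of 4. Hsc70-4 is highest in An. merus at 66 h in SW (mean 10826 CPM) and lowest in An. coluzzii at 18 h in FW (4064 CPM). Calreticulin of An. merus at 18 h is lower in all 4 SW libraries than in any FW library. Single 18 h libraries stand far above the rest of their group for BiP, gp93, calreticulin, protein disulfide isomerase and Hsp83.

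Calreticulin had the largest log2 difference between waters of the ER genes at 18 h in both species, though not at 66 h. At 18 h An. merus had 253, 208, 207 and 230.5 CPM in SW and 617, 1098, 678 and 762 CPM in FW, 2 sets of values that lay far apart. An. merus at 66 h had 336, 273, 263 and 277 CPM in SW and 438, 363, 426 and 269.9 CPM in FW, with overlap. In An. coluzzii at 18 h the SW libraries had 720.2, 251, 213 and 247 CPM and the FW libraries 1146, 1161, 581 and 430.2 CPM. SW library 1 was above 2 of these FW libraries, and the other 3 SW libraries were below all of them. An. coluzzii at 66 h had 491, 448, 478 and 612 CPM in SW and 565, 462, 477 and 468 CPM in FW, which overlapped. In order of the means, the FW groups at 18 h were highest (An. coluzzii 829.6 ± 379 CPM, An. merus 789 ± 215 CPM, SD, n = 4 each) and An. merus at 18 h in SW was lowest (225 ± 21.6 CPM). Neighbours in that order did not overlap in 3 places. These were An. merus 18 h FW with An. coluzzii 66 h SW, An. coluzzii 66 h FW with An. merus 66 h FW, and An. merus 66 h SW with An. merus 18 h SW. Groups further apart could still overlap. An. coluzzii at 18 h in FW, at 430.2 to 1161 CPM, spanned both groups of that species at 66 h.

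BiP had means between 432 ± 65.5 CPM (An. merus 66 h SW) and 293 ± 80.2 CPM (An. coluzzii 66 h FW), and each group overlapped its neighbours in the order of means. At 66 h An. merus had 496, 376, 375 and 481 CPM of BiP in SW and 450.5, 319, 488 and 340.3 CPM in FW, and at 18 h 309, 265, 311 and 349 CPM in SW and 362, 588, 392 and 335 CPM in FW. An. coluzzii at 66 h had 360.3, 394, 455 and 478 CPM in SW and 399, 313, 232 and 229.8 CPM in FW. The waters overlapped in each of these 3 pairs of groups. An. coluzzii at 18 h, where they overlapped as well, held both the highest and the lowest BiP value of the series, with 713, 217, 135 and 169 CPM in SW and 471, 459, 329 and 255 CPM in FW.

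The mean of gp93 was higher in SW than in FW at 66 h and lower at 18 h, in both species. At 66 h An. merus had 378, 327, 265 and 359 CPM in SW and 252, 179, 289 and 217 CPM in FW. Of these SW libraries, 3 of 4 were above all FW libraries. At 18 h it had 197, 166, 181 and 189 CPM in SW and 277, 515, 271 and 208 CPM in FW, and all SW libraries were below all FW libraries. An. coluzzii at 66 h had 135, 158, 181 and 167 CPM of gp93 in SW and 142, 116, 99.7 and 95.5 CPM in FW. At 18 h An. coluzzii had 346, 135, 77.6 and 93.2 CPM in SW and 324, 310.1, 172 and 163 CPM in FW. Both pairs of An. coluzzii overlapped, and so did all neighbours in the order of the 8 means.

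Protein disulfide isomerase had the narrowest range of the 6 genes, 236.5 to 544 CPM, a 2.3-fold span. At 18 h An. merus had 289, 312, 344 and 389.7 CPM in SW and 417, 544, 446 and 496 CPM in FW, with no overlap. The means of the other 6 groups ran from 420.2 ± 41.2 CPM in An. coluzzii at 66 h in SW to 304 ± 125 CPM in An. coluzzii at 18 h in SW (SD, n = 4 each). All neighbours in the order of the 8 means overlapped.

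Log2 fold changes are of log2(CPM + 1), tested with limma in 1 model over all 32 libraries and 10505 genes. Genes with a Benjamini-Hochberg adjusted p below 0.05 are called changed, and the intervals printed are 95% intervals. The model takes 1 error per gene for all groups, though the spread differed between them. For calreticulin at 18 h the SE was 0.30 in this model in each species. In models of the libraries concerned alone it was 0.16 in An. merus and 0.49 in An. coluzzii. After 6 h of SW, An. merus at 18 h had more Hsc70-4 and less calreticulin and protein disulfide isomerase than in FW. These were 3 of 6 genes called, against 51.7% of all genes, with 1 higher (25.2% of all genes) and 2 lower (26.5%). Calreticulin fell by 1.78 on the log2 scale (SE 0.30, interval -2.38 to -1.17, limma adjusted p = 1.87e-05), and all 4 SW libraries were lower than any FW library. Only 0.533% of all genes tested had a more negative change. Protein disulfide isomerase fell by 0.51 (SE 0.19, limma adjusted p = 0.0234), a call that was lost when SW library 1 or 2, or FW library 2 or 4, was left out (adjusted p = 0.0692, 0.0563, 0.0739 and 0.0517). Hsc70-4 rose by 0.42 (SE 0.09, limma adjusted p = 0.00022), and by 0.20 and 0.24 under the other 2 scalings described below (adjusted p = 0.0347 and 0.0466).

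The remaining 3 genes were not called in An. merus at 18 h. For gp93 the log2 fold change was -0.71 (interval -1.36 to -0.05, limma adjusted p = 0.0657). It was called when all libraries were given an equal sum (-0.93, adjusted p = 0.0197), with quantile normalisation (-1.04, 0.0118), with edgeR on the recovered reads (-0.79, 0.0461), without FW library 4 (-0.88, 0.0341) and in a model of the 8 libraries concerned alone (0.0287). Without FW library 2, the library that stood high, gp93 was at -0.45 (adjusted p = 0.264). For BiP the change was -0.41 (interval -1.08 to 0.26), called only in the model of the 8 libraries (adjusted p = 0.0443) and at -0.24 without FW library 2 (adjusted p = 0.604). For Hsp83 it was -0.21 (interval -0.89 to 0.47), and 0.17 without FW library 2. The median log2 fold change was -0.61 over the 4 ER genes and -0.02 over all genes tested.

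At 66 h, An. merus had more Hsp83 and more Hsc70-4 in SW than in FW, and none of its ER genes was called. The 2 genes called, both higher, compare with 57.2% of all genes called and 25.8% called higher. Hsp83 rose by 0.90 (SE 0.33, interval 0.23 to 1.58, limma adjusted p = 0.0213), with 4 of 4 SW libraries above all FW libraries, and lost its call without FW library 2 (adjusted p = 0.0684). Hsc70-4 rose by 0.28 (SE 0.09, limma adjusted p = 0.00904). Both calls depend on the scaling. When all libraries were given an equal sum, Hsp83 was at 0.66 (adjusted p = 0.103) and Hsc70-4 at 0.03 (adjusted p = 0.786), beside a median over all genes of -0.26 in place of -0.06. With quantile normalisation they were at 0.59 (adjusted p = 0.163) and -0.02 (adjusted p = 0.86). The log2 fold changes of the ER genes were 0.51 for gp93, 0.18 for protein disulfide isomerase, 0.12 for BiP and -0.36 for calreticulin, with limma adjusted p from 0.174 to 0.766. In a model of the 8 libraries concerned alone gp93 was called (adjusted p = 0.0142).

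In An. coluzzii at 18 h, calreticulin was the 1 gene of 6 called, and it was lower in SW, against 8.25% of all genes called and 3.55% called lower. It fell by 1.28 (SE 0.30, interval -1.89 to -0.67, limma adjusted p = 0.0118). That call depends on the FW libraries and on pooling the error across the 8 groups. Without FW libraries 1 and 2 together the value was -0.68 (adjusted p = 0.549), without either alone the adjusted p was 0.0648 and 0.0783, and in a model of the 8 libraries concerned it was 0.276. Most other genes lost their calls as well. Of 10505 genes, 867 were called with all libraries, 18 without FW libraries 1 and 2 and 6 in the model of the 8 libraries. Without SW library 1, in contrast, 5 of the 6 chaperone genes were called lower, with calreticulin at -1.68, gp93 at -1.21, BiP at -1.10, Hsp83 at -1.10 and protein disulfide isomerase at -0.73. Without FW library 4, 4 of the 6 were called, since Hsp83 (-1.01, adjusted p = 0.0483), protein disulfide isomerase (-0.65, 0.0191) and Hsc70-4 (0.38, 0.00307) joined calreticulin. The share of all genes called with 1 library left out is not given here. With FW libraries 1 and 2 and SW library 1 all left out, a setting chosen after the values were seen, calreticulin was at -1.08 (adjusted p = 0.0172) and none of the others was called. Of all genes, 74 were called in that setting. With all libraries kept, the values not called were -0.81 for Hsp83, -0.76 for gp93, -0.59 for BiP, -0.48 for protein disulfide isomerase and 0.27 for Hsc70-4, with limma adjusted p from 0.0554 to 0.249.

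None of the 6 genes was called in An. coluzzii at 66 h, where 2.24% of all genes were (limma; 0 of the 6 had an unadjusted p below 0.05, and edgeR on the recovered reads also called 0). The log2 fold changes were 0.55 for BiP (interval -0.11 to 1.22), 0.51 for gp93 (interval -0.15 to 1.16), -0.39 for Hsp83 (interval -1.07 to 0.29) and between 0.03 and 0.07 for the other 3. The interval of Hsc70-4, -0.15 to 0.21, was the tightest of these.

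**Figure D2:**
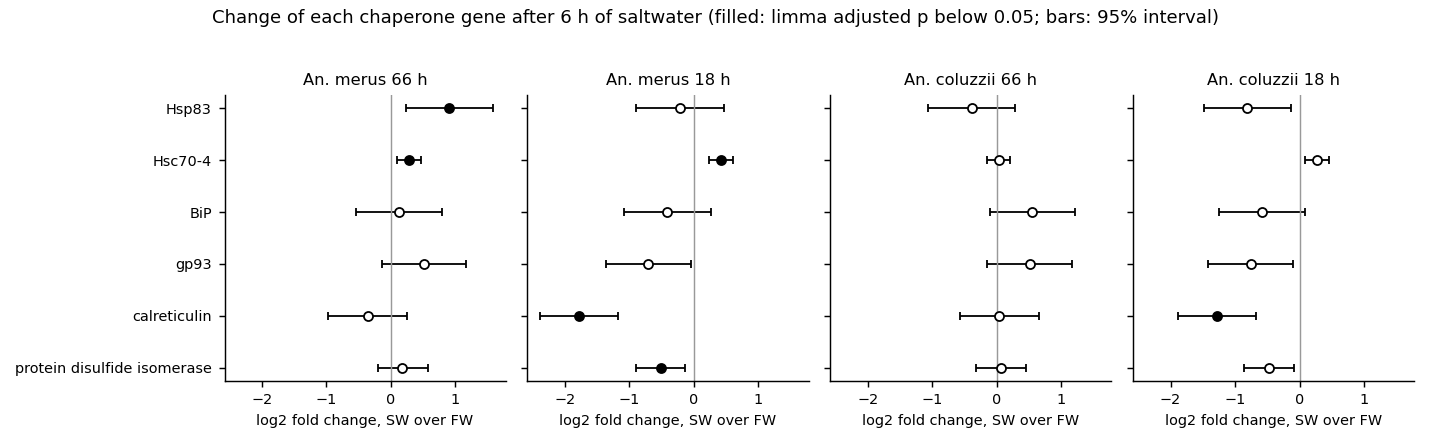
Log2 fold change of SW over FW (horizontal axis) for each chaperone gene in the 4 pairs of groups; bars are 95% intervals, filled points are called by limma at an adjusted p below 0.05 and open points are not. Calreticulin is lowest in both 18 h panels, at -1.78 in An. merus and -1.28 in An. coluzzii, and at 66 h its points lie at -0.36 and 0.04.

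Whether the change under SW depended on larval age was tested as a difference between the changes at 66 h and at 18 h. In An. merus this difference was called for calreticulin alone, 1 of 6 against 13.3% of all genes called and 5.46% called higher. It was 1.41 for calreticulin (SE 0.42, limma adjusted p = 0.0261), the change at 66 h being the less negative. That call was lost without 66 h FW library 4 (adjusted p = 0.0596) or 18 h FW library 2 (0.0641). In An. merus the difference was 1.22 for gp93 (limma adjusted p = 0.0728), 1.11 for Hsp83 (0.116), 0.70 for protein disulfide isomerase (0.0812), 0.53 for BiP and -0.15 for Hsc70-4. Hsp83 was called without 18 h FW library 3 (1.41, adjusted p = 0.0386), gp93 without 18 h FW library 4 (1.40, 0.0499), and gp93 and protein disulfide isomerase in a model of the 16 libraries concerned (0.0133 and 0.0117).

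In An. coluzzii the difference between ages was called for none of the 6 (limma), and for 0.0762% of all genes. It was 1.32 for calreticulin, 1.27 for gp93, 1.14 for BiP, 0.55 for protein disulfide isomerase, 0.42 for Hsp83 and -0.24 for Hsc70-4. Of these, 4 had an unadjusted p below 0.05, and edgeR on the recovered reads called 0. Without 18 h SW library 1 of An. coluzzii, BiP (1.65, limma adjusted p = 0.0201), gp93 (1.71, 0.0336) and calreticulin (1.72, 0.0229) were called. Without 18 h FW libraries 1 and 2, in contrast, calreticulin was at 0.71, gp93 at 0.81, protein disulfide isomerase at 0.21 and Hsp83 at -0.17, and none was called. The median over the 4 ER genes was 0.96 in An. merus and 1.20 in An. coluzzii, beside -0.04 and 0.01 over all genes tested.

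Whether the change under SW depended on the species was tested in the same way, as the change in An. merus minus that in An. coluzzii. At 66 h the species difference was called for Hsp83, 1 of 6 against 32.1% of all genes called and 14.5% called higher. It was 1.30 (SE 0.47, interval 0.34 to 2.25, limma adjusted p = 0.0344). Hsp83 averaged 223 ± 15.1 CPM in SW and 120.1 ± 24.1 CPM in FW in An. merus, and 56.3 ± 9.05 CPM in SW and 75.7 ± 21 CPM in FW in An. coluzzii (SD, n = 4 each). The call was lost with libraries of equal sum (1.05, adjusted p = 0.0915) and with quantile normalisation (adjusted p = 0.148). It was also lost in turn without An. merus SW library 1 or 3 or FW library 2 or 4, and without An. coluzzii SW library 1 or 3 or FW library 1 or 2, with adjusted p from 0.0521 to 0.0719. At 18 h none of the 6 was called for a species difference, against 21% of all genes (limma; 0 had an unadjusted p below 0.05, and edgeR on the recovered reads called 0). For calreticulin at 18 h it was -0.50 with a wide interval, -1.36 to 0.37. It was at -0.09 without SW library 1 of An. coluzzii and at -1.10 without FW libraries 1 and 2 of that species, and its limma or edgeR adjusted p lay between 0.0507 and 0.889 over the alternatives run. Hsc70-4 was called (0.39, limma adjusted p = 0.0265) without FW libraries 1 and 2 and SW library 1 of An. coluzzii at 18 h. For Hsc70-4 those FW libraries were the lowest of their group (3555 and 3595 CPM) and that SW library the highest of its group (5564 CPM).

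In FW, older larvae had more Hsc70-4 and less Hsp83 than younger ones in both species. In An. merus, at 66 h against 18 h, 3 of 6 genes were called against 50.8% of all genes, with 1 higher (26.9% of all genes) and 2 lower (23.9%). Hsc70-4 rose by 0.80 (SE 0.09, limma adjusted p = 1.29e-08), calreticulin fell by 1.06 (SE 0.30, adjusted p = 0.00399) and Hsp83 fell by 0.83 (SE 0.33, adjusted p = 0.0371). The Hsp83 call was lost without 66 h library 2 or 4 or 18 h library 2 or 4 (adjusted p = 0.107, 0.0709, 0.224 and 0.062) and in a model of the 8 libraries concerned (0.116). Without 18 h library 2 its value was -0.45. Protein disulfide isomerase was at -0.44 in An. merus (limma adjusted p = 0.0533), and was called lower with libraries of equal sum and with quantile normalisation (-0.96 in each), in the model of the 8 libraries (adjusted p = 0.0184) and without library 1 of 66 h or of 18 h (0.0401 and 0.0452). In An. merus gp93 was at -0.38, and was called lower with libraries of equal sum (-0.90) and with quantile normalisation (-0.83). In An. coluzzii 3 of 6 were called against 58.6% of all genes, with 1 higher (29.9% of all genes) and 2 lower (28.7%). Hsc70-4 rose by 0.54 (limma adjusted p = 5.78e-06), Hsp83 fell by 1.31 (adjusted p = 0.00131) and gp93 fell by 1.04 (adjusted p = 0.00701). Without 18 h libraries 1 and 2 of An. coluzzii, Hsp83 was at -0.73 and gp93 at -0.58, and neither was called (adjusted p = 0.0993 and 0.205). Calreticulin was at -0.63 in An. coluzzii (limma adjusted p = 0.072). It was called lower with edgeR (-0.76, adjusted p = 0.036), with libraries of equal sum (-1.10), with quantile normalisation (-1.20) and without 18 h library 3 or 4 (0.0465 and 0.0105), but was at -0.03 without 18 h libraries 1 and 2. In An. coluzzii BiP was at -0.36 and protein disulfide isomerase at -0.01. Both were called lower with libraries of equal sum (-0.83 and -0.48) and with quantile normalisation (-0.92 and -0.62), and without 18 h libraries 1 and 2 they were at -0.02 and 0.33, not called.

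The rise of Hsc70-4 with age depends on the scaling. When all libraries were given an equal sum it was 0.27 in An. merus, still called by limma, and 0.07 in An. coluzzii, not called, beside medians over all genes of -0.46 and -0.45, which were near 0 with TMM scaling. With quantile normalisation it was -0.05 in An. merus and -0.29 in An. coluzzii, where it was called lower (adjusted p = 0.0127).

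Between the species in FW, the genes called by the model over all libraries were higher in An. merus. At 66 h these were 2 of 6, against 51% of all genes called and 27.1% called higher. Hsc70-4 averaged 8952 ± 906 CPM in An. merus and 5879 ± 453 CPM in An. coluzzii (SD, n = 4 each; log2 fold change 0.60, limma adjusted p = 2.04e-06; 0.34 with quantile normalisation). The mean of gp93 was 234 ± 47.2 CPM in An. merus and 113 ± 20.9 CPM in An. coluzzii (log2 fold change 1.03, limma adjusted p = 0.00869). Calreticulin was lower in all 4 libraries of An. merus than in any of An. coluzzii (-0.42, limma adjusted p = 0.246), and Hsp83 was at 0.68 (0.088). Both were called in a model of the 8 libraries concerned (adjusted p = 0.045 and 0.0228). At 18 h Hsc70-4 alone was called, 1 of 6 against 46.8% of all genes called and 24.3% called higher. It averaged 5133 ± 152 CPM in An. merus and 4064 ± 709 CPM in An. coluzzii (log2 fold change 0.35, limma adjusted p = 0.00176). It was at 0.18 (adjusted p = 0.151) without An. coluzzii libraries 1 and 2, at 0.21, still called, with libraries of equal sum and at 0.10 (0.398) with quantile normalisation. Without An. coluzzii 18 h FW libraries 1 and 2 and SW library 1, 3 ER genes were called higher in An. merus at 18 h in place of Hsc70-4. These were gp93 at 0.84, calreticulin at 0.62 and protein disulfide isomerase at 0.57 (limma adjusted p = 0.00957, 0.0101 and 0.0028). With all libraries they were at 0.38, 0.02 and 0.23, none called. That setting was chosen after the values were seen. It leaves out An. coluzzii libraries high in the ER genes and keeps the high library 2 of An. merus. It raises these differences by the choice itself, so the 3 calls are not read as a species difference. Both species share 1 set of identifiers, and how readily reads of each aligned was not tested.

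Within a group, the ER genes and Hsp83 were high or low in the same libraries, and Hsc70-4 was not. In library 1 of An. coluzzii at 18 h in SW the 4 ER genes stood 0.77 to 1.54 above their group mean on the log2 scale, 2.32-fold on average. In library 2 of An. merus at 18 h in FW they stood 0.20 to 0.78 above it, and Hsp83 1.14 above. After subtraction of group means, BiP and gp93 correlated over the 32 libraries with Pearson r = 0.95 and Spearman rho = 0.93 (permutation within groups, 100000 resamples, adjusted p = 0.00015 for each over 15 gene pairs). The unadjusted permutation p was 1e-05 for each, the smallest these resamples can give. Calreticulin and protein disulfide isomerase had r = 0.91 and rho = 0.86 (permutation adjusted p = 0.0002 and 0.0003), and Hsp83 and BiP r = 0.75 and rho = 0.79 (permutation adjusted p = 0.00037 and 0.0003). Leaving out the 2 libraries farthest from the median of the first gene gave r = 0.92, 0.84 and 0.69 for these pairs. All 10 pairs among Hsp83 and the ER genes had r of 0.73 to 0.95 and rho of 0.62 to 0.93, with the lowest r at 0.60 after such a removal. The 5 pairs with Hsc70-4, which carries the same scaling factor as the other genes of its library, had r of -0.24 to 0.03 and rho of -0.28 to -0.17 (permutation adjusted p from 0.31 to 0.99).

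These shared deviations were seen at both ages. Within the 16 libraries at 66 h, the 10 pairs among Hsp83 and the ER genes had r of 0.36 to 0.92, the lowest being gp93 with protein disulfide isomerase. Within the 16 libraries at 18 h they had r of 0.75 to 0.96. Hsc70-4 reached r = -0.65 with calreticulin at 66 h. The SD within groups on the log2 scale was 0.28 at 66 h and 0.61 at 18 h for BiP, 0.24 and 0.61 for gp93, and 0.21 and 0.57 for calreticulin. It was 0.18 at 66 h and 0.35 at 18 h for protein disulfide isomerase, 0.28 and 0.62 for Hsp83, and 0.11 and 0.15 for Hsc70-4. This difference in spread between the ages was not tested.

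**Figure D3:**
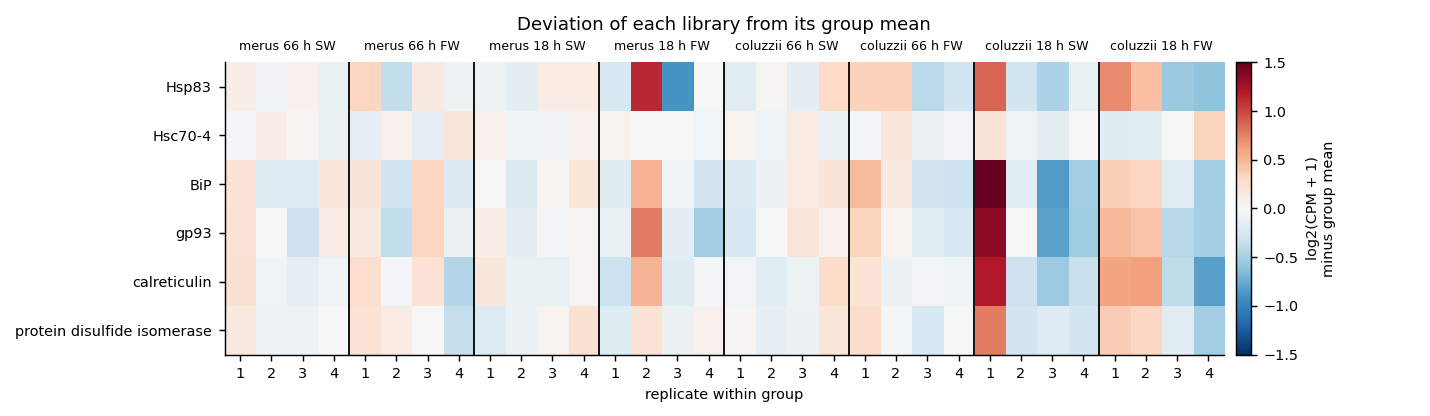
Deviation of each library (columns, 4 per group, replicate numbers below) from the mean of its group in log2(CPM + 1), for each chaperone gene (rows); red is above and blue below the group mean. Columns tend to share a colour for Hsp83 and the 4 ER genes, most strongly in library 1 of An. coluzzii at 18 h in SW (0.77 to 1.54 above the group mean for the ER genes), while Hsc70-4 stays pale.

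A ratio of a pair of genes within 1 library is free of the library's scaling factor. It is free of a shared deviation only as far as that is equal in both genes on the log2 scale. The ratio of BiP to calreticulin was higher in SW than in FW in each species at each age, with no overlap between the libraries in any of the 4 pairs of groups. In An. merus it was 1.5 ± 0.162 in SW and 1.08 ± 0.164 in FW at 66 h, and 1.38 ± 0.15 in SW and 0.535 ± 0.0676 in FW at 18 h (SD, n = 4 each). In An. coluzzii it was 0.836 ± 0.0979 in SW and 0.59 ± 0.118 in FW at 66 h, and 0.794 ± 0.164 in SW and 0.491 ± 0.103 in FW at 18 h. The geometric mean of the ratio was 1.4 times as high in SW at 66 h and 2.58 times at 18 h in An. merus, and 1.43 times at 66 h and 1.62 times at 18 h in An. coluzzii. The groups came closest in An. coluzzii, with 0.734 in the lowest SW library and 0.705 in the highest FW library at 66 h, and 0.634 in the lowest SW library and 0.594 in the highest FW library at 18 h. These ratios compare reads and not molecules, since gene lengths were not used, so only their differences between groups are read.

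The exact permutation test over 4 against 4 libraries (two-sided) gave p = 0.0286 for each of these 4 differences, the smallest it can give. All 15 gene pairs were compared in 8 pairs of groups, 120 tests in all, of which 51 reached that smallest p. Ratios of other genes were not computed, so how often any pair of genes separates in this way is not known. The separation is therefore not read as a trait of the chaperone genes. The adjusted p of these 51 tests was 0.0673, so no single ratio passes the adjustment at this group size, and BiP to calreticulin was singled out after its values were seen. The ratio of gp93 to calreticulin was likewise higher in SW, 1.84 times at 66 h and 2.1 times at 18 h in An. merus and 1.39 times at 66 h in An. coluzzii (exact p = 0.0286 each, adjusted 0.0673). In An. coluzzii at 18 h the groups overlapped for this ratio (1.43 times, exact p = 0.0857). Hsp83 to Hsc70-4 averaged 0.0206 ± 0.00153 in SW and 0.0137 ± 0.00384 in FW in An. merus at 66 h (1.55 times, exact p = 0.0286, adjusted 0.0673). In An. coluzzii at 66 h this ratio averaged 0.0095 ± 0.0021 in SW and 0.0128 ± 0.00303 in FW, and the groups overlapped (0.745 times, exact p = 0.114).

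**Figure D4:**
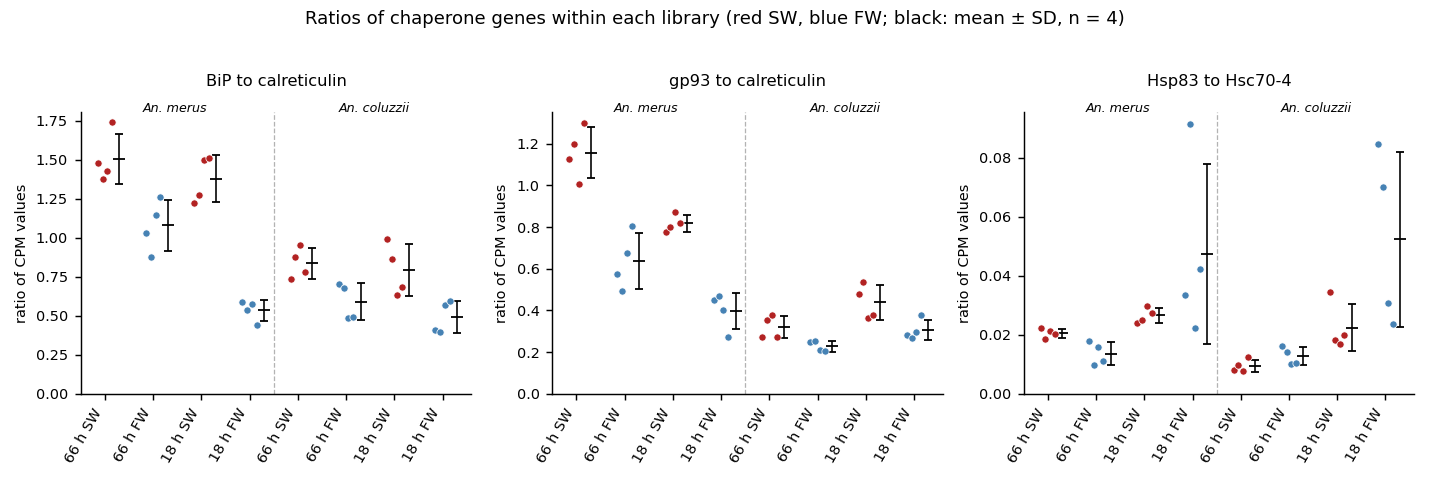
Ratio of CPM values within each library for BiP to calreticulin, gp93 to calreticulin and Hsp83 to Hsc70-4 (linear axes from 0); points are libraries, red SW and blue FW, with mean ± SD of 4 in black. The BiP to calreticulin ratio is higher in every SW library than in any FW library of the same species and age, with means of 1.38 in SW and 0.535 in FW in An. merus at 18 h and 0.836 in SW and 0.59 in FW in An. coluzzii at 66 h.

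Across the 32 libraries, the genes most like each chaperone were sought among all others tested, by Pearson r of log2(CPM + 1). No test was made, since the libraries differ in species, age and water. Group means were not subtracted, so r includes the differences between groups. AGAP008501 was nearest to Hsc70-4 (r = 0.964), which had 105 genes at r of 0.9 or more, whereas the other members had 1 or 2 each. AGAP001827 was nearest to BiP (r = 0.923) and AGAP001919 to gp93 (r = 0.903), and AGAP001919 was also second nearest to BiP (r = 0.848). AGAP006522 was nearest to calreticulin (r = 0.911), AGAP005861 to protein disulfide isomerase (r = 0.906) and AGAP001267 to Hsp83 (r = 0.905). AGAP005861 also came first for the mean of the 4 ER genes (r = 0.883). The files do not pair these identifiers with names.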

How the data were processed

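The deposited table holds a gene-level signal, which the authors name CPM scaled by TMM, in 32 columns matched to samples by name (0 columns unused). The submitters' processing notes name edgeR, HTSeq, TopHat2, Bowtie2 and Trimmomatic; versions, genome build, annotation and the filter are not given in the sources used here. Per the labels' protocols, libraries were polyA-selected with the TruSeq RNA v2 kit, which does not mark strand. Dividing by the value of 1 read gave whole reads for 100% of values (tolerance 0.01). The 48 replicate pairs differed by 5.36 to 50.3 times the sampling noise, so each library was counted. The 10505 genes averaging 1 CPM or more were tested as log2(CPM + 1) with limma 3.58.1 in R 4.3.3 (8 group means, trend and robust options, 24 residual degrees of freedom), for 12 comparisons, after a check on simulated data. The design had assumed plain CPM, and its test was kept. Intervals use limma's SE and the moderated degrees of freedom behind its p-value. edgeR 4.0.16, ratios and correlations within libraries, and 1 setting on libraries left out were added after seeing the data. Figures used matplotlib 3.10.9. All 6 genes are named without regard to value; of other genes, the 2 with the highest r to each were sought, and the nearest are named. Of the 11025 identifiers, 0 occur in the reference gene table, so planned lists of related chaperones were not used, and no sequences are shown. The members and lists were chosen with earlier results of these data known.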

Additional observations from a re-analysis of the deposited data

Results flagged for a closer look

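In 4 of 48 sets of 4 libraries (6 genes in 8 groups), 1 library lay far from the other 3 by Dixon's criterion, where chance flags about 5%. Library 1 of An. coluzzii at 18 h in SW accounts for 3 of them, with 713.3 CPM of BiP, 720.2 CPM of calreticulin and 491.3 CPM of protein disulfide isomerase. The fourth was calreticulin in library 1 of An. coluzzii at 66 h in FW, at 565.4 CPM. The SW over FW change of Hsp83 at 66 h was 1.30 higher on the log2 scale in An. merus than in An. coluzzii (limma, adjusted p = 0.0344). That of calreticulin in An. merus was 1.41 higher at 66 h than at 18 h (limma, adjusted p = 0.0261). The causes of these differences were not tested.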

How the results depend on the processing

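The number of chaperone genes called did not depend on the pseudocount (4 or 0.25), on the filter (none, or a mean of 5 CPM) or on edgeR by more than 1.5 times in any of the 12 comparisons. With libraries of equal sum it was 0 for SW in An. merus at 66 h, 0 for species and water at 66 h, and 5 for age in FW in each species. Of all 10505 genes, 6118 were called for SW in An. merus at 66 h and 3931 for species and water at 66 h. For age in FW, 7246 were called in An. merus and 7669 in An. coluzzii. The values of BiP and protein disulfide isomerase for SW in An. merus at 66 h turned to -0.13 and -0.07 with equal sums. With quantile normalisation the number of chaperone genes called was 0 for SW in An. merus at 66 h, 2 for SW in An. coluzzii at 18 h, 0 for species and water at 66 h, 0 for species in FW at 18 h and 6 for age in FW in An. coluzzii. In the same order, 5390, 1186, 2447, 5000 and 6118 of all genes were called. Hsc70-4 then turned to -0.02 and BiP to -0.01 for SW in An. merus at 66 h, and Hsc70-4 to -0.05 and -0.29 for age in FW in An. merus and An. coluzzii. In models of the libraries concerned alone the number of chaperone genes called was 5 for SW in An. merus at 18 h, 0 for SW in An. coluzzii at 18 h, 3 for age and water in An. merus and 4 for species in FW at 66 h. In the same order, 5976, 6, 1630 and 4893 of all genes were called. Without libraries 1 and 2 of An. coluzzii at 18 h in FW the number of chaperone genes called was 0 for SW at 18 h and 1 for age in FW, where 18 and 5223 of all genes were called. Hsp83 for age and water in An. coluzzii turned to -0.17 without those libraries. Without those and SW library 1 the number of chaperone genes called was 1 for species and water at 18 h, 3 for species in FW at 18 h and 1 for age in FW in An. coluzzii. In the same order, 2050, 4176 and 5359 of all genes were called. With 1 library left out, the count ran from 1 to 2 and 2 to 3 for SW in An. merus at 66 h and 18 h, 0 to 0 and 0 to 5 in An. coluzzii, 0 to 1 and 0 to 0 for species and water at 66 h and 18 h, 0 to 2 and 0 to 3 for age and water in An. merus and An. coluzzii, 2 to 2 and 1 to 1 for species in FW at 66 h and 18 h, and 2 to 4 and 3 to 4 for age in FW in An. merus and An. coluzzii. Hsp83 for SW in An. merus at 18 h ran from -0.51 to 0.17. For SW in An. coluzzii at 66 h, Hsc70-4 ran from -0.01 to 0.08, calreticulin from -0.06 to 0.10 and protein disulfide isomerase from -0.01 to 0.16. The cause of these changes was not tested. No paired analysis was possible because the labels number the libraries in 1 run from 1 to 32, so groups share no replicate number. The lowest value rests on 267 reads, a counting error of 6.12%.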
